A study of Mus musculus with 2 samples.

Results

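Newborn mouse kidney with Six2Cre carried the tumour suppressor gene Flcn as flox/flox (labelled KO) or as flox/+ (labelled WT). The vacuolar H+-ATPase (V-ATPase) isoforms with a restricted tissue distribution, Atp6v0a4, Atp6v0d2, Atp6v1b1, Atp6v1c2 and Atp6v1g3, were followed across its cell types. The members were the rows of the deposited count matrices with these symbols, 5 of 55488 gene rows, each symbol standing on 1 row and all 5 detected in both libraries. In loop of Henle cells of the Flcn KO library Atp6v0d2 was 10.1-fold higher than in the WT library, whereas Atp6v1b1 and Atp6v1c2 were lower, at 0.233 and 0.0878 of the WT level, and Atp6v0a4 lay at 1.08 times the WT level. The higher Atp6v0d2 level lay in the 175 KO cells of a cluster called Umod-rich. The 13 WT cells of that cluster had few UMIs, 0 of them of Atp6v0d2, and did not share the high Umod level. In the 25 KO cells that clustered with 136 WT cells Atp6v0d2 was at 0.431 of the level of those WT cells. Summed over all intercalated cells none of the 5 members differed by 1.5-fold. In a split made after the data had been seen, Atp6v0d2 was 1.81-fold higher in those of the distal tubule cluster, on 10 KO cells. In those of the ureteric bud and collecting duct cluster it was 1.15-fold higher, and no other member passed 1.5-fold in either cluster. Atp6v1g3 was found almost only in intercalated cells in both libraries.

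The V-ATPase is a rotary proton pump made of a cytosolic V1 sector that hydrolyses ATP and a membrane V0 sector that carries protons, and it acidifies lysosomes and endosomes in every cell. Several subunits are encoded by more than 1 gene, with a widely expressed isoform and a restricted one. In the kidney the restricted isoforms are known from the pumps that intercalated cells of the connecting and collecting duct place in their plasma membrane to secrete acid or base, and in humans loss of ATP6V0A4 or ATP6V1B1 causes distal renal tubular acidosis. Flcn encodes folliculin, which acts at the lysosome on Rag GTPases and keeps TFEB and TFE3 in check, transcription factors known as activators of lysosomal genes that include V-ATPase subunits.

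Both groups were profiled by droplet single-cell RNA-seq at postnatal day 0. Each gave 1 library, which leaves no replicates to test across. The KO group carried Six2Cre and Flcn flox/flox. The group labelled Flcn WT carried Six2Cre and Flcn flox/+ according to the series design, so it is heterozygous and shares the Cre with the KO group. Six2 drives the Cre in nephron progenitors, and their descendants inherit the deletion, whereas ureteric bud, stroma, endothelium and blood cells arise outside this lineage. The number of animals or kidneys behind each library is not given in the sources used here, and the tissue is labelled embryonic kidney.

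The KO library held 5991 barcodes and 149679281 UMIs (unique molecular identifiers, each counting 1 captured transcript molecule), and the WT library 5572 barcodes and 147390790 UMIs. After filtering, 4768 KO and 3977 WT cells remained, with 13 classes named from marker genes, 601 KO and 335 WT cells unnamed, and 1 barcode shared by both libraries among the kept cells. All 10 loop of Henle markers were detected in the loop of Henle cluster, which held 201 KO and 150 WT cells, of which 1 WT cell was then counted as intercalated. At the main clustering resolution no cluster earned the name intercalated (at the finer one, 1 of 14 KO and 39 WT cells did), so intercalated cells were taken as the cells with UMIs of at least 3 of 10 intercalated markers, none of them a V-ATPase gene. This gave 24 KO cells (0.503% of the library's cells, exact 95% interval 0.323 to 0.748%) and 65 WT cells (1.63%, 1.26 to 2.08%), of which 20 KO and 55 WT cells had UMIs of at least 4 of the 5 members. Flcn itself had 107 KO and 54 WT UMIs in loop of Henle cells, a ratio of 1.37 (0.980 to 1.94), and ratios of 0.583 (0.501 to 0.678) in proximal tubule and 0.537 (0.273 to 0.978) in intercalated cells. Which exons the flox alleles remove is not stated in these sources and the tags come from transcript 3′ ends, so Flcn counts are no test of its deletion.

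Levels are given as CPM, the UMIs of a gene in all cells of a class in 1 library, scaled to 1000000 nuclear-encoded UMIs. A ratio divides the KO level by the WT level, and its exact 95% interval covers counting error only, not the spread between animals. A UMI counts a molecule whatever the length of its transcript, but capture can differ between genes, so levels of different genes are compared only roughly. In these sums, fewer expressing cells and less RNA per cell cannot be told apart, and shares of cells with a UMI are given beside them.

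Atp6v0a4, the a4 subunit of the V0 sector, which helps form the path of the protons, lies on GRCm38 at chr6:38048483-38124586 on the minus strand. Its highest level was in proximal tubule, with 307 CPM in KO and 415 CPM in WT cells, and it came next in intercalated cells with 295 CPM in KO and 244 CPM in WT cells. Loop of Henle followed with 179 CPM in KO and 166 CPM in WT cells, and distal tubule with 153 CPM in KO and 94.7 CPM in WT cells. The order of these 4 classes was the same in both libraries, but the KO intervals of proximal tubule (299 to 315 CPM) and intercalated cells (269 to 322 CPM) overlapped, and so did those of loop (171 to 187 CPM) and distal tubule (135 to 172 CPM). Every other named class except early nephron was below 20 CPM in both libraries. The gene shares 1413 bases with D630045J12Rik on the same strand and 6555 bases with Tmem213 on the opposite strand, and how reads in such stretches were assigned is not given in the sources used here. In loop of Henle cells the ratios of these overlapping genes were 0.839 for D630045J12Rik and 0.694 for Tmem213, both below that of Atp6v0a4.

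Atp6v0d2, the d2 subunit that joins the V0 sector to the central stalk and is also known from osteoclasts, lies at chr4:19876841-19922605 on the minus strand. It was highest in intercalated cells, with 384 CPM in KO and 290 CPM in WT cells. The next class was loop of Henle in the KO library, at 135 CPM, against 13.3 CPM in WT loop of Henle cells, where it overlapped the WT distal tubule level of 10.8 CPM. Of all Atp6v0d2 UMIs in kept cells, loop of Henle cells held 60.5% in KO and 5.87% in WT, and intercalated cells held 25.5% in KO and 81.2% in WT. These shares also follow the number of cells in each class. Stroma held a further 150 KO and 125 WT UMIs, at 5.65 CPM in KO and 7.38 CPM in WT cells.

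Atp6v1b1, the B1 subunit of the catalytic head of the V1 sector, lies at chr6:83742990-83758855 on the plus strand. Intercalated cells were again highest, with 174 CPM in KO and 155 CPM in WT cells. Loop of Henle had 12 CPM in KO and 51.8 CPM in WT cells, and distal tubule 26.5 CPM in KO and 50.8 CPM in WT cells. The last 2 WT levels did not differ beyond their counting intervals (46.9 to 57.1 CPM and 42.0 to 60.8 CPM). Ureteric bud and collecting duct cells outside the intercalated gate had 9.43 CPM in KO and 6.46 CPM in WT cells.

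Atp6v1c2, a C subunit of the stalk that holds V1 to V0, lies at chr12:17284721-17329359 on the minus strand. It reached 182 CPM in KO and 194 CPM in WT intercalated cells, which held 87.4% of its UMIs in KO and 87.8% in WT. The only other class above 4 CPM was WT loop of Henle, at 9.08 CPM (7.09 to 11.5), against 0.797 CPM (0.365 to 1.51) in KO loop of Henle cells. Its span shares 50 bases with Pdia6 on the opposite strand, an abundant gene with 86376 UMIs in kept cells, whose ratio in loop of Henle cells was 0.884.

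Atp6v1g3, a G subunit of the peripheral stalk, lies at chr1:138273738-138289462 on the plus strand. Intercalated cells had 589 CPM in KO and 588 CPM in WT and held 95.1% of its UMIs in KO and 96.9% in WT. No other class with more than 100 cells in both libraries exceeded the 1.58 CPM of WT mural cells, which are not known to use the gene. In KO loop of Henle cells it had 2 UMIs, against 4 UMIs in WT.

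**Figure D1:**
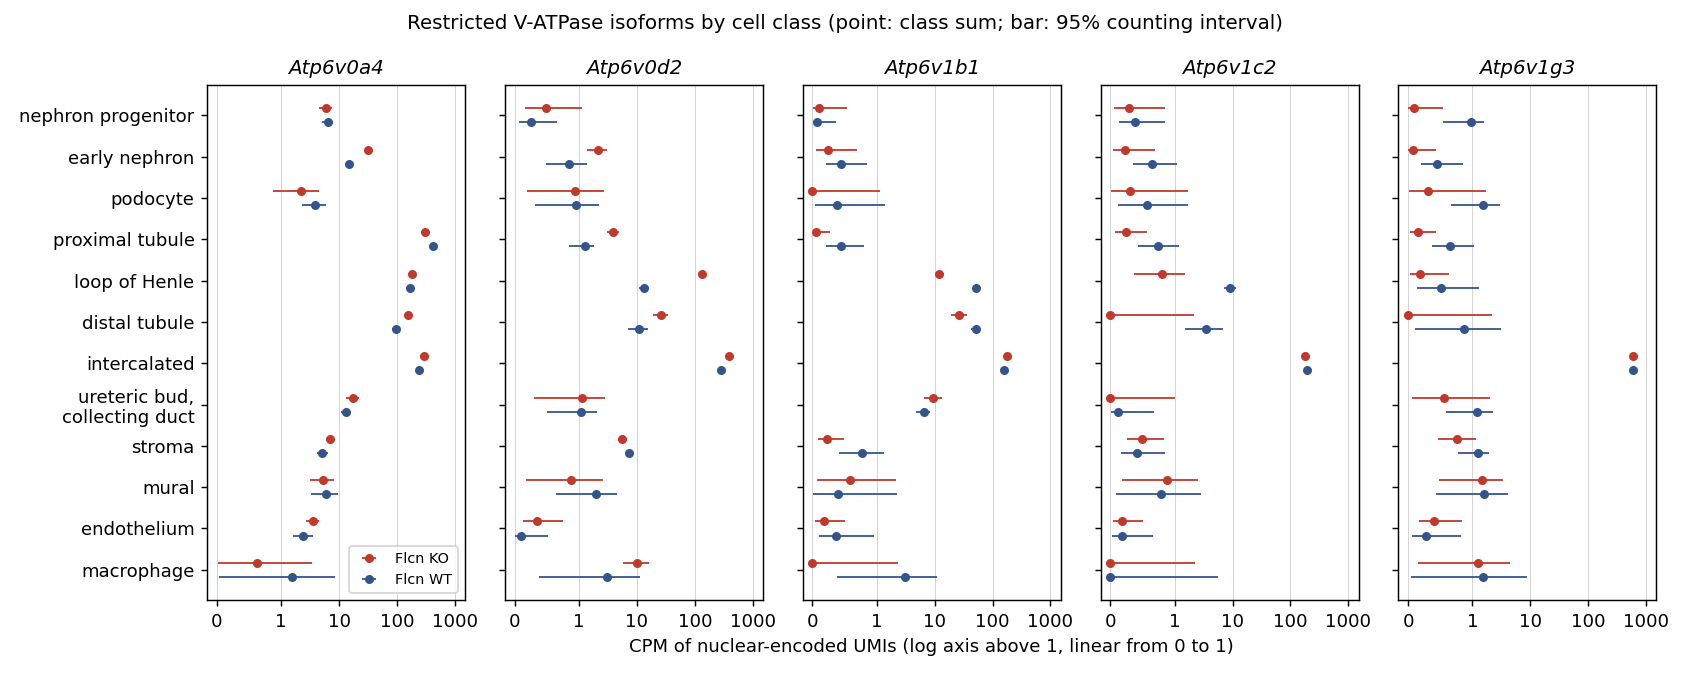
CPM of the 5 restricted isoforms (columns) in 12 cell classes (rows), KO red above WT blue, each point a class sum and each bar its exact 95% counting interval; neutrophils, with 17 WT cells, are not drawn. Intercalated cells stand highest for Atp6v0d2, Atp6v1b1, Atp6v1c2 and Atp6v1g3, proximal tubule for Atp6v0a4, and the KO and WT points lie far apart in loop of Henle for Atp6v0d2, Atp6v1b1 and Atp6v1c2.

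Atp6v1b1 and Atp6v1c2 were the members with lower levels in KO loop of Henle cells, and the sequences before their starts are shown because a forkhead motif, as bound by the intercalated cell factor Foxi1, would be looked for there. Windows of 250 bases before to 50 bases after the RefSeq start (GRCm38.p6) existed for 4 of the 5 members. Atp6v0d2, the member that was higher in KO loop of Henle cells, had no window and was not searched for any motif. In the windows of the other 4 the letters TAAACA, searched on both strands, occurred once, in Atp6v1b1. The match was TGTTTA starting 98 bases before the start (in capitals below). Of 32851 mouse promoter windows of the same length, 13.4% hold this motif. The Atp6v1b1 window is chr6:83742767-83743066 on the plus strand and the Atp6v1c2 window chr12:17324681-17324980 on the minus strand, inside the span of the annotated gene.
Atp6v1b1: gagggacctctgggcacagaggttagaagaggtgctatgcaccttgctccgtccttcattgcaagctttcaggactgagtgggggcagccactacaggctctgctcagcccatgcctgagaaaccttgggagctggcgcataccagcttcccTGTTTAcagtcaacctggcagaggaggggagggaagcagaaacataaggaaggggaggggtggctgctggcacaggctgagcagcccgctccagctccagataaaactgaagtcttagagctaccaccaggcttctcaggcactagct
Atp6v1c2: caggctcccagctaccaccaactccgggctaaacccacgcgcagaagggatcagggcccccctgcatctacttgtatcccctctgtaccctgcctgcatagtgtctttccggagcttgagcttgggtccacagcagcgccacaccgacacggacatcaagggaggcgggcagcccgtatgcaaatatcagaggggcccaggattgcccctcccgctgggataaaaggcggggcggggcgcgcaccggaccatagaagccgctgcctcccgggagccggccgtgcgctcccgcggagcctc

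The E-box CACGTG, the core of the motif bound by TFEB and TFE3, was searched in the same windows. It occurred in none of the 4 members with a window (Atp6v0d2 was not searched), in 4 of 14 widely expressed V-ATPase genes with a window, and in 7.15% of all windows. The longer CLEAR motif, known from TFEB target genes, occurred in none of the 4 members, in none of these 14 genes and in 0.326% of all windows. Some of the 14 genes have more than 1 window. A gene counts once if any of its windows has a match, whereas the percentages are per window. The matches, with CACGTG in capitals, lie at chr8:105566050-105566079 (minus strand) for Atp6v0d1, chr4:117887348-117887377 and chr4:117887330-117887359 (minus strand) for Atp6v0b, chr17:26676387-26676416 (plus strand) for Atp6v0e and chr16:44139373-44139402 (minus strand) for Atp6v1a. They are shown to set the widely expressed genes, described further on, beside the members. A match of letters is not a binding site, and a window without one says nothing of the factor.
Atp6v0d1: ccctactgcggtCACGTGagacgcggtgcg
Atp6v0b, first match: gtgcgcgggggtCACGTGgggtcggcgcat
Atp6v0b, second match: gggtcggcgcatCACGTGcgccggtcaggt
Atp6v0e: tagcgcgccgatCACGTGagcctctgttga
Atp6v1a: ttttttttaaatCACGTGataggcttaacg

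The loop of Henle, whose thick limb reabsorbs salt and makes uromodulin (Umod), was the class in which the members parted most. Atp6v0d2 had 1522 UMIs in 201 KO cells and 104 UMIs in 149 WT cells, which is 135 CPM in KO and 13.3 CPM in WT and a ratio of 10.1 (8.30 to 12.5). A UMI of Atp6v0d2 was found in 77.1% of KO cells (70.7 to 82.7%) and in 26.2% of WT cells (19.3 to 34.0%). With each cell thinned to 3000 UMIs these shares were 25.5% in KO and 3.57% in WT. In endothelium, where the gene is not expected, 1.29% of KO and 0.338% of WT cells had a UMI, at median depths of 25933 UMIs per KO cell and 22143 per WT cell, against 49825 and 41142 in KO and WT loop of Henle cells. The Atp6v0d2 shares in loop of Henle cells were thus above those in endothelium in both libraries. Per cell, Atp6v0d2 ranged from 0 to 6.09 UMIs per 10000 nuclear-encoded UMIs in KO cells with a median of 1.11, and from 0 to 2.16 in WT cells with a median of 0. The 2 libraries overlapped, since many KO cells had no UMI, and 5 WT cells held 39.4% of all WT UMIs of the gene.

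Atp6v1b1 went the other way in the same cells. It had 136 UMIs in KO and 405 UMIs in WT loop of Henle cells, 12 CPM in KO and 51.8 CPM in WT, a ratio of 0.233 (0.190 to 0.283). Cells with a UMI made up 35.8% in KO (29.2 to 42.9%) and 62.4% in WT (54.1 to 70.2%), and 6.12% in KO and 17.9% in WT at the thinned depth. The highest KO cell had 1.29 UMIs per 10000, in a cell of 62190 nuclear-encoded UMIs. The highest WT values, 9.95 and 4.58, came from shallow cells of 4022 and 10916 UMIs and rest on few UMIs, and a WT cell of 28868 UMIs had 3.12. In proximal tubule, which had 1 KO and 10 WT UMIs of the gene in larger classes, the level was below 0.5 CPM in both libraries, so the loop level was above this in both libraries.

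Atp6v1c2 was lower too, with 9 UMIs in KO and 71 UMIs in WT loop of Henle cells and a ratio of 0.0878 (0.0386 to 0.176). It had a UMI in 3.48% of KO cells (1.41 to 7.04%) and 22.1% of WT cells (15.8 to 29.7%). The WT UMIs were unevenly spread, with 45.1% of them in 5 cells. Atp6v1g3 had 4 UMIs beside these 71 Atp6v1c2 UMIs, whereas WT intercalated cells had 2924 Atp6v1g3 and 965 Atp6v1c2 UMIs.

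Atp6v0a4 had 2023 UMIs in KO and 1300 UMIs in WT loop of Henle cells, a ratio of 1.08 (1.0 to 1.16), with a UMI in 94.0% of KO and 87.9% of WT cells. Of the 4 members with at least 10 UMIs in the class, 1 was at least 1.5-fold higher in KO and 2 were at least 1.5-fold lower, where 12.9% of the 16720 genes with as many UMIs were higher and 18% lower by this limit. At a 2-fold limit the same 1 member was higher and the same 2 were lower, against 6.17% and 9.25% of those genes. The 4 log2 ratios spanned -3.44 to 3.33 around a median over all genes of -0.03.

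**Figure D2:**
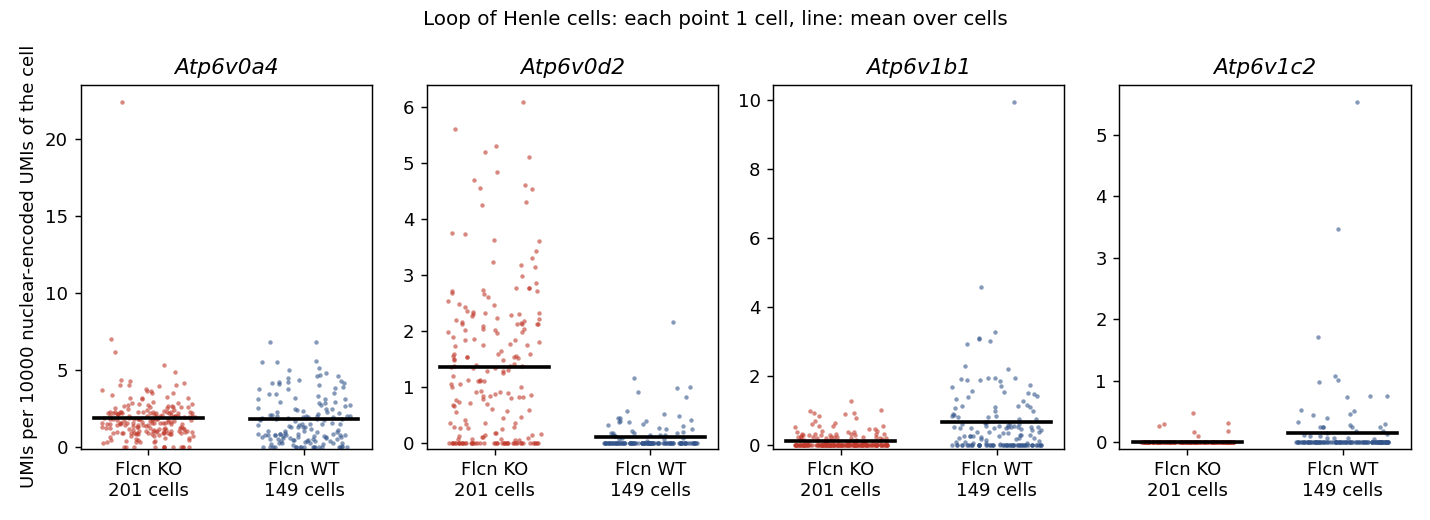
UMIs per 10000 nuclear-encoded UMIs of each loop of Henle cell (points) for 4 members, KO red on the left and WT blue on the right, with the mean over cells as a line. Many KO cells lie above 1 for Atp6v0d2 where few WT cells do, and WT cells reach higher values than KO cells for Atp6v1b1 and Atp6v1c2, the highest of them in a shallow cell, while Atp6v0a4 covers a similar range apart from 1 KO cell at 22.4.

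Detection of the pair Atp6v0d2 and Atp6v1b1 in the same loop cells differed between the libraries. In KO cells 95 of 201 had a UMI of Atp6v0d2 alone, 12 of Atp6v1b1 alone and 60 of both. In WT cells 12 of 149 had a UMI of Atp6v0d2 alone, 66 of Atp6v1b1 alone and 27 of both. In intercalated cells the pair was found together, in 22 of 24 KO and 60 of 65 WT cells. Intercalated cell genes other than V-ATPase subunits ranged from absent to abundant in loop of Henle cells. Foxi1, the transcription factor of intercalated cells, had 1 UMI in KO and 1 in WT, Slc26a4 (pendrin) and Hmx2 had none in either, and Slc4a1 (the anion exchanger AE1) had 0 in KO and 1 in WT. Slc4a9, an anion exchanger of base-secreting intercalated cells, had 7 UMIs in KO and 44 in WT, a ratio of 0.110 (0.0419 to 0.247). Of the 15 listed intercalated cell genes, 7 had at least 10 UMIs, and of these 1 (Kit, 1.99) was at least 1.5-fold higher and 3 at least 1.5-fold lower in KO. Over all genes in the class 12.9% were higher and 18% lower by this limit. The summed level of the list was 117 CPM in KO and 164 CPM in WT, mostly from the carbonic anhydrases Car2, with 89.5 CPM in KO and 132 CPM in WT, and Car12, with 20.2 CPM in KO and 20.3 CPM in WT.

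At a finer clustering resolution, also made without V-ATPase genes, loop of Henle cells fell into a Umod-rich cluster of 175 KO and 13 WT cells and another, led by Pappa2 and Slc12a1, of 25 KO and 136 WT cells, with 1 further KO cell in an unnamed cluster. The first is nearly all from 1 library, so the cluster and the library cannot be told apart. Its 13 WT cells held few UMIs, with 0 of Atp6v0d2 (upper bound 93.7 CPM), 1 of Atp6v0a4 and 2 of Atp6v1b1. Umod in these 13 cells was 1016 CPM (726 to 1384), so the name Umod-rich describes only the KO cells of the cluster. Atp6v0d2 had 150 CPM (143 to 158) in the 175 KO cells of the Umod-rich cluster and 5.76 CPM (2.32 to 11.9) in the 25 KO cells of the other, a ratio of 26.1 (12.6 to 65.1) within the KO library. In the 136 WT cells of that other cluster it had 13.4 CPM (10.9 to 16.2), so the KO cells that clustered with WT cells did not have the higher level. Atp6v1b1, by contrast, was low in both KO sets, with 12.2 CPM (10.1 to 14.6) in the Umod-rich and 10.7 CPM (5.70 to 18.3) in the other cluster, against 51.8 CPM (46.9 to 57.1) in the WT cells. Within the shared cluster the KO over WT ratio was 0.206 (0.109 to 0.357) for Atp6v1b1 and 0.670 (0.557 to 0.800) for Atp6v0a4. For Atp6v0d2 it was 0.431 (0.169 to 0.920), on 7 KO UMIs. For Atp6v1c2 it was 0.361 (0.0956 to 0.964), on 4 KO UMIs, against 0.0878 over the whole class. Slc12a1, the salt transporter that marks the thick limb, was also lower in the KO cells of this cluster, with 2919 CPM in KO and 7884 CPM in WT, a ratio of 0.370 (0.358 to 0.383), and its part in the other ratios was not tested. Atp6v1b2, the widely expressed B subunit, was 2.55-fold higher there (2.22 to 2.92), with 248 CPM in KO and 97.2 CPM in WT, and Fnip2, which encodes a folliculin-binding protein, 4.45-fold higher (3.86 to 5.14). Tcirg1, the a3 subunit, had a ratio of 1.10 (0.592 to 1.92) in the shared cluster and Atp6v0a2 one of 0.663 (0.412 to 1.02), neither different from 1 beyond counting error. Umod was 3470 CPM in the Umod-rich KO cells and 708 CPM in the other KO cells, and 976 CPM in the WT cells of the other cluster.

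**Figure D3:**
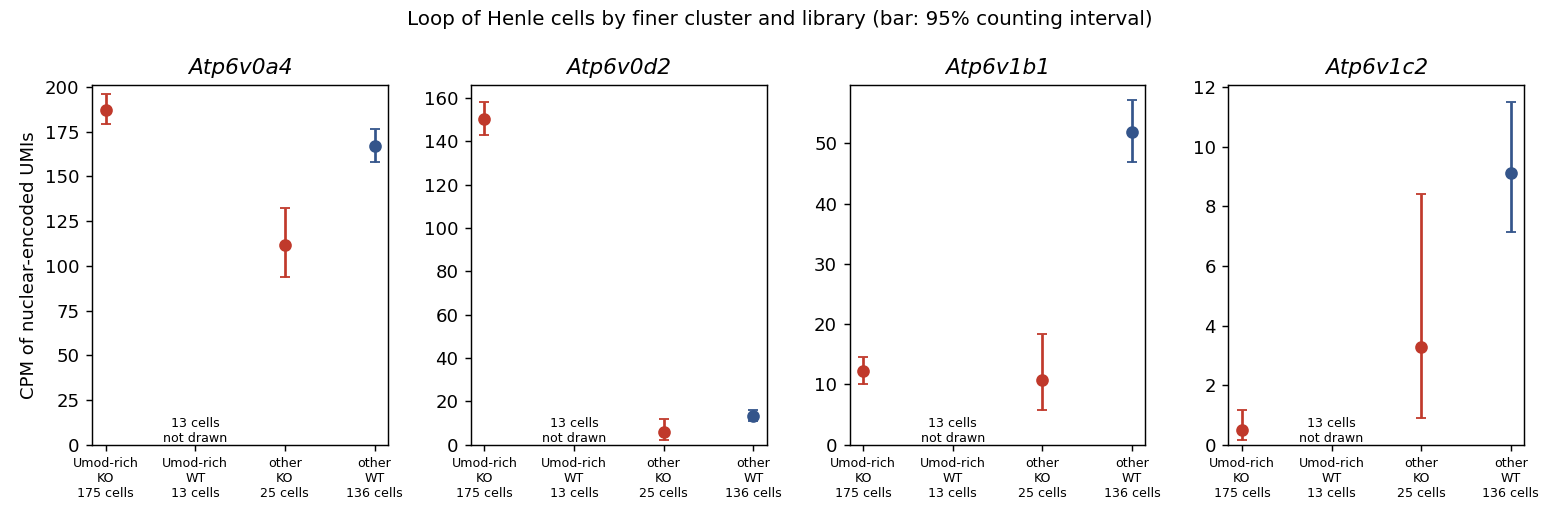
CPM of 4 members in loop of Henle cells split by finer cluster and library, KO red and WT blue, with exact 95% counting intervals; the 13 WT cells of the Umod-rich cluster are not drawn. Atp6v0d2 is high only in the Umod-rich KO cells, whereas Atp6v1b1 is near 12 CPM in both KO sets and near 52 CPM in WT.

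The share of each restricted isoform among all isoforms of its subunit does not depend on the depth of a class. In loop of Henle cells Atp6v0d2 made up 44.1% of d subunit UMIs in KO (42.5 to 45.8%) and 13.6% in WT (11.3 to 16.3%), the rest being Atp6v0d1. Atp6v1b1 made up 3.74% of B subunit UMIs in KO (3.15 to 4.41%) and 34.8% in WT (32.0 to 37.6%), the rest being Atp6v1b2. Thus d2 took a larger and B1 a smaller part of its subunit in KO. Both terms of the B subunit differed, since Atp6v1b2 was 3.19-fold higher in KO (2.95 to 3.46). Atp6v1c2 made up 0.592% of C subunit UMIs in KO and 11.5% in WT, and Atp6v0a4 49.98% of a subunit UMIs in KO and 62.7% in WT although its own level was close in both. Tcirg1, the a3 isoform known from osteoclasts and lysosomes, was 4.75-fold higher over the class (3.79 to 6.02), with 52.9 CPM in KO and 11.1 CPM in WT, although its ratio in the shared cluster was 1.10, and Atp6v0a1 1.59-fold higher (1.43 to 1.78).

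In intercalated cells the restricted isoforms were the larger part of every subunit and their shares stayed close between libraries. Atp6v0a4 had 71.9% in KO and 74.4% in WT, Atp6v1b1 57.7% in KO and 60.3% in WT, Atp6v1c2 73.6% in KO and 74.7% in WT, and Atp6v1g3 70.8% in KO and 71.4% in WT. Their intervals overlapped. For Atp6v0d2 the share was 78.3% in KO (75.3 to 81.0%) and 72.1% in WT (70.1 to 74.1%), so it was higher in KO beyond counting error.

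**Figure D4:**
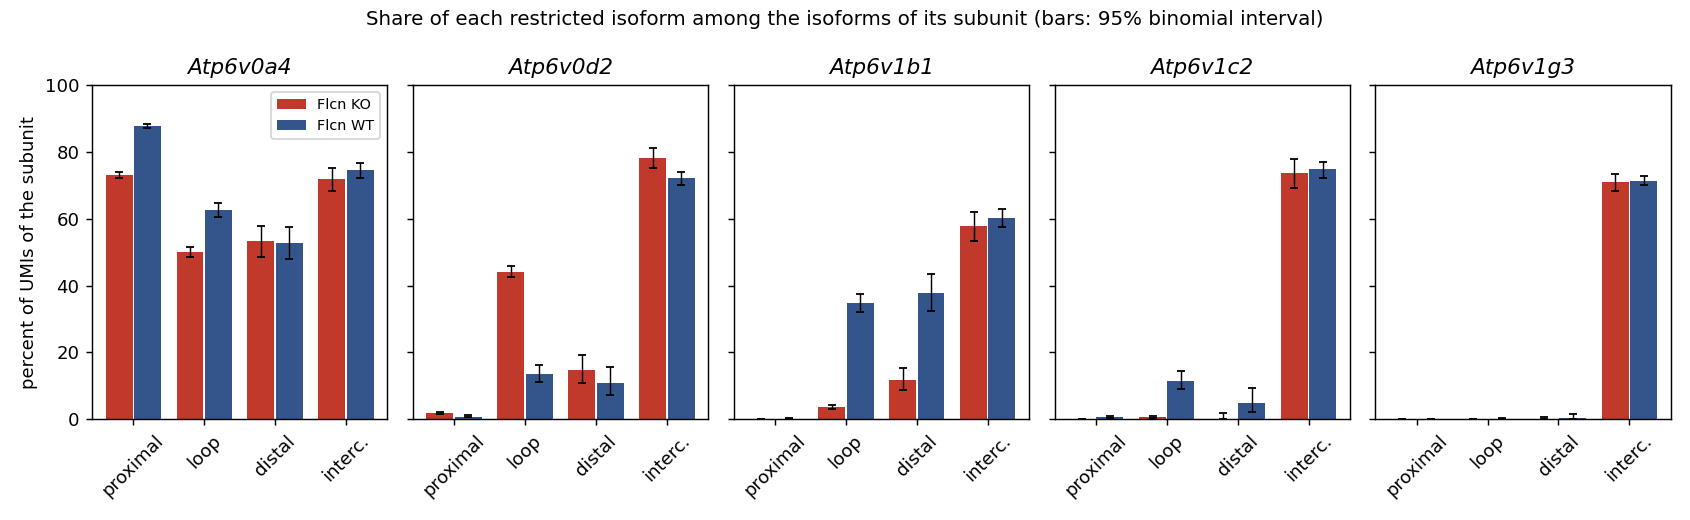
Percent of the UMIs of a subunit that came from its restricted isoform, in 4 classes, KO red left of WT blue, with exact 95% binomial intervals. In loop cells d2 is at 44.1% in KO and 13.6% in WT and B1 at 3.74% in KO and 34.8% in WT, whereas the intercalated bars lie between 57.7% and 78.3% in both libraries.

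Summed over all intercalated cells, the levels of the members lay within 1.5-fold between the libraries. The ratio was 1.33 (1.21 to 1.46) for Atp6v0d2, 1.21 (1.08 to 1.34) for Atp6v0a4, 1.12 (0.978 to 1.29) for Atp6v1b1, 1.0 (0.930 to 1.08) for Atp6v1g3 and 0.937 (0.821 to 1.07) for Atp6v1c2. None of the 5 passed 1.5-fold in either direction, where 13.4% of 14600 genes were at least 1.5-fold higher and 11.6% at least 1.5-fold lower in KO. With the gate of at least 2 markers Atp6v0a4 came to the other side of 1, at 0.921. Other genes of this class differed more: Hmx2, a transcription factor, had 0 UMIs in KO and 136 in WT, Slc26a4 a ratio of 0.362 (0.271 to 0.477), Slc4a1 one of 0.318 (0.154 to 0.593) and Spink8 one of 2.93 (2.64 to 3.26), while Foxi1 was at 0.973 (0.846 to 1.12). Of the 15 genes of the intercalated list 1 was at least 1.5-fold higher and 4 at least 1.5-fold lower, and its summed level was 2961 CPM in KO and 2428 CPM in WT. Some of these genes also set the gate, and their part in the members' ratios was not tested. The KO sums rest on 24 cells, and 5 of them held between 41.2% and 59.8% of the UMIs of each member. All members varied widely among intercalated cells: Atp6v1g3 had from 0 to 146 UMIs per cell in KO with a median of 24.5, and from 0 to 450 in WT with a median of 26.

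Intercalated cells came from the distal tubule cluster (10 KO and 32 WT cells) and from the ureteric bud and collecting duct cluster (14 KO and 31 WT cells), with 2 further WT cells elsewhere. This split was examined after the data had been seen. By the lineages given above, distal tubule, as part of the nephron, lies within the Six2 lineage and ureteric bud outside it. The ratios over all intercalated cells thus join both clusters, and the lineage of single cells was not tested. Intercalated cells of the distal cluster had more Atp6v1g3, with 1121 CPM in KO and 974 CPM in WT, than those of the collecting duct cluster, with 367 CPM in KO and 335 CPM in WT. Atp6v0d2 in the distal cluster's intercalated cells was 619 CPM in KO and 342 CPM in WT, a ratio of 1.81 (1.58 to 2.08), and in those of the collecting duct cluster 285 CPM in KO and 248 CPM in WT, a ratio of 1.15 (1.01 to 1.31). Atp6v1b2 gave 1.70 (1.32 to 2.17) in the distal and 1.09 (0.867 to 1.35) in the collecting duct cluster, and Fnip2 gave 6.75 (5.26 to 8.70) in the distal and 1.29 (0.894 to 1.84) in the collecting duct cluster. Atp6v1b1 gave 0.873 (0.678 to 1.11) in the distal cluster's intercalated cells, which did not differ beyond counting error, and 1.33 (1.12 to 1.58) in those of the collecting duct cluster. With 10 and 14 KO cells from 1 library, no test of the difference between the clusters could be made.

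In proximal tubule only Atp6v0a4 reached 4 CPM in either library, with 6317 UMIs in 463 KO cells and 9495 UMIs in 635 WT cells and a ratio of 0.740 (0.717 to 0.764). The class joins 4 clusters that the libraries fill unequally. In the largest, led by Spp2 and Gatm, with 260 KO and 260 WT cells, Atp6v0a4 had 359 CPM in KO and 591 CPM in WT. It had 197 CPM in KO and 216 CPM in WT in a cluster of 115 KO and 121 WT cells, 253 CPM in KO and 245 CPM in WT in one of 36 KO and 110 WT cells, and 108 CPM in KO and 87.3 CPM in WT in one of 52 KO and 144 WT cells. The lower KO level was thus mainly seen in the largest cluster. At the finer resolution proximal tubule clusters ranged from 194 KO and 71 WT cells to 6 KO and 89 WT cells. Equal numbers in the largest cluster therefore need not mean like cells, and the part of this in the ratio was not tested. Cells with a UMI made up 85.7% in KO and 75.6% in WT, and 46.5% in KO and 55.8% in WT at the thinned depth, so the unthinned shares ran against the CPM at the greater KO depth. Its share of a subunit UMIs was 73.0% in KO and 87.7% in WT, with Atp6v0a1 at 2.60 times (2.38 to 2.85) and Tcirg1 at 2.39 times (1.85 to 3.11) the WT level. Atp6v0d2 had 80 UMIs in KO and 29 in WT, a ratio of 3.07 (1.98 to 4.87), but 63.8% of the KO UMIs came from 5 cells. The other 3 members had at most 17 UMIs in a library. Their WT levels were 0.437 CPM for Atp6v1b1, 0.742 CPM for Atp6v1c2 and 0.655 CPM for Atp6v1g3. In WT stroma the same members had 0.768, 0.413 and 1.24 CPM. By the 1.5-fold limit 1 member was higher and 3 were lower in KO, against 12.5% and 14.6% of 19181 genes. The 3 lower ones are these members, so that count rests on levels near those of stroma.

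Distal tubule cells numbered 47 in KO and 82 in WT after intercalated cells had been taken out. Atp6v1b1 had 26.5 CPM in KO and 50.8 CPM in WT, a ratio of 0.522 (0.362 to 0.742), Atp6v0a4 a ratio of 1.61 (1.34 to 1.94) and Atp6v0d2 a ratio of 2.41 (1.44 to 4.11). Genes of other cell types differed beside them. The intercalated cell list summed to 822 CPM in KO and 433 CPM in WT, with 4 of 8 genes at least 1.5-fold higher and 2 lower: Foxi1 had 17 UMIs in KO and 2 in WT, Rhcg a ratio of 2.30 (1.97 to 2.68), Kit one of 3.32 (1.91 to 5.99), and Slc4a9 1 UMI in KO and 23 in WT. The macrophage and osteoclast list summed to 65.4 CPM in KO and 41.3 CPM in WT, with 3 of 6 genes at least 1.5-fold higher and none lower, Lyz2 at 24 UMIs in KO and 0 in WT, and Dcstamp at 0 in both. Their part in the members' ratios was not tested. The directions of the 3 members were those of the loop, but 5 cells held 40% to 65.9% of the KO UMIs, and each of the 3 ratios turned round in at least 1 alternative setting. Of the 3 members with at least 10 UMIs, 2 were at least 1.5-fold higher and 1 at least 1.5-fold lower, against 15.2% and 19% of 13292 genes. Median depth was 32714 UMIs per KO cell and 7236 per WT cell, and its part in these ratios was not tested. In early nephron cells Atp6v0a4 had 31.2 CPM in KO and 15.1 CPM in WT, a ratio of 2.07 (1.78 to 2.41), with 37.2% of the KO UMIs in 5 of 269 cells. That direction turned round with no doublet removal (0.676) and at the thinned depth (0.774). By the limit 2 members were higher (Atp6v0a4 and Atp6v0d2) and 3 lower there, with at most 27 UMIs in a library for all but Atp6v0a4, against 8.32% and 9.46% of 19833 genes. The intervals of all 3 lower members included 1, and Atp6v1b1 among them kept its direction in only 6 of 11 alternatives.

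The other 19 listed V-ATPase genes, the widely expressed paralogs with the remaining subunits and accessory proteins, were mostly higher in KO loop of Henle cells. Of all genes in the class 12.9% were at least 1.5-fold higher, 18% at least 1.5-fold lower and 6.17% at least 2-fold higher. Of the 19, 18 were above 1, 10 were at least 1.5-fold higher and none at least 1.5-fold lower (4 higher at a 2-fold limit). Their median log2 ratio was 0.63 against -0.03 over all genes. The 6 highest were Tcirg1, Atp6v1b2, Atp6v0d1 (2.03, 1.85 to 2.22), Atp6v1d (2.01, 1.89 to 2.15), Atp6v1c1 (1.92, 1.74 to 2.13) and Atp6v0c, the proton-carrying ring subunit (1.82, 1.76 to 1.89). Of the 4 genes with a CACGTG in the window, Atp6v0d1 and Atp6v0b (1.62, 1.54 to 1.70) passed 1.5-fold, whereas Atp6v0e (1.33, 1.27 to 1.38) and Atp6v1a (1.05, 1.0 to 1.10) did not. In intercalated cells 3 of the 19 were called at least 1.5-fold higher and none lower, beside 13.4% of all genes called higher. They were Tcirg1 (1.71), Atp6v0e2 (1.98) and Atp6v1g2, whose plain ratio was 1.49 and which passed only on the log2 scale with 0.5 UMI added, on which calls were made. The list had a median of 0.04 against 0.05 over all genes. Thus Atp6v1b1 and Atp6v1c2 lay below every one of the 19 in loop cells, the lowest of which was Atp6v1g2 at 0.712 (0.435 to 1.17), and Atp6v0d2 lay above every one.

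**Figure D5:**
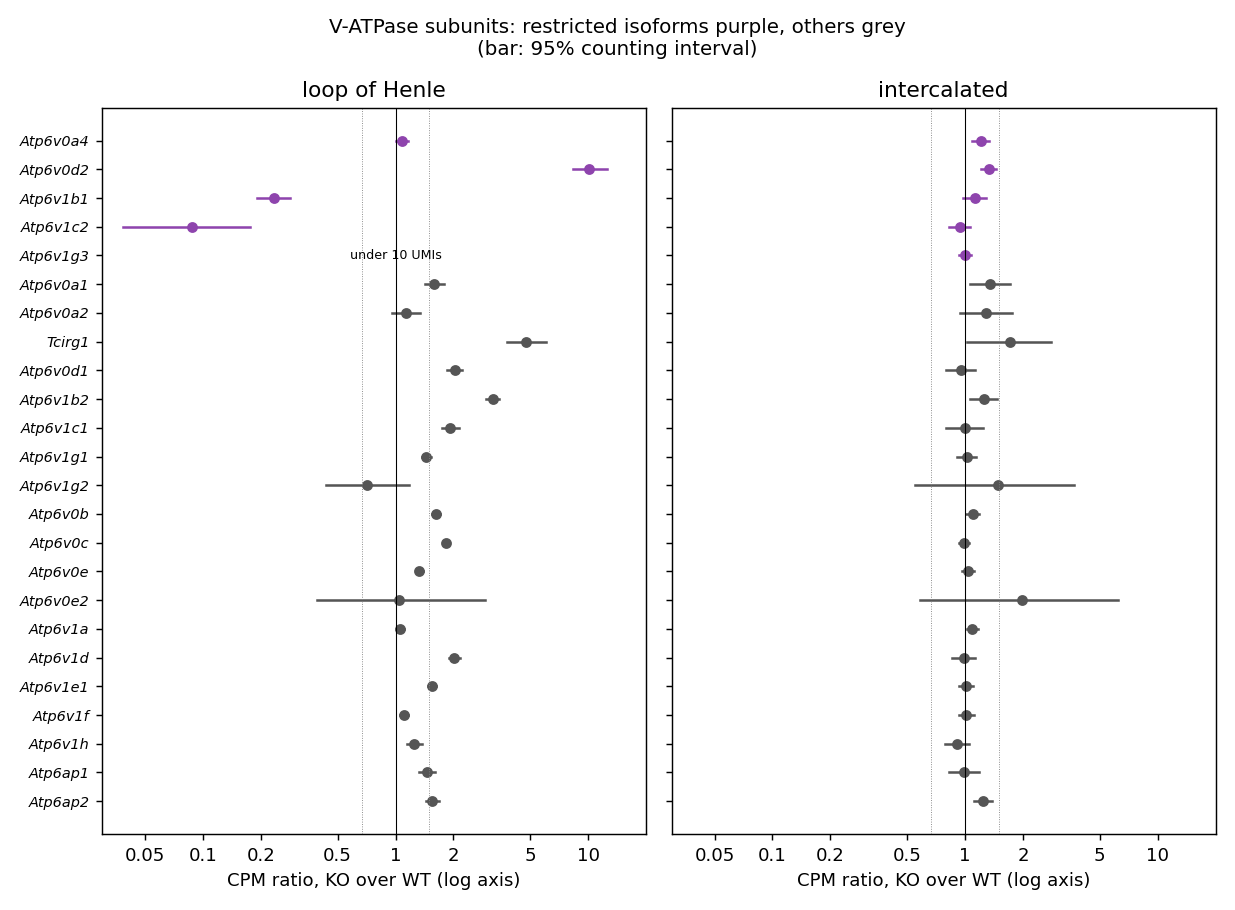
CPM ratios, KO over WT on a log axis, of the 5 restricted isoforms (purple) and 19 other V-ATPase genes (grey) in loop of Henle and intercalated cells, with exact 95% counting intervals and dotted lines at 1.5-fold either way. In loop cells the purple points spread from 0.0878 to 10.1 while the grey points lie between 0.712 and 4.75; in intercalated cells the purple points lie between 0.937 and 1.33.

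Genes of the folliculin and TFEB pathway were also higher in loop of Henle cells, with 16 of 21 at least 1.5-fold higher, none lower and a median log2 ratio of 1.0. Of all genes with at least 10 UMIs in this class, 12.9% were higher and 18% lower by the same limit. Gpnmb, a lysosomal glycoprotein used as a marker of TFE3 activity, had 54.8 CPM in KO and 1.41 CPM in WT, and Hexa, a lysosomal hexosaminidase, 200 CPM in KO and 23.3 CPM in WT. Between the 2 KO loop clusters Gpnmb, as Atp6v0d2, was higher in the Umod-rich one, with 60.7 CPM there and 6.58 CPM in the other cluster. Hexa was 209 CPM in the Umod-rich and 122 CPM in the other cluster. Between KO and WT cells of the shared cluster Gpnmb and Atp6v0d2 parted. The ratio there was 4.65 (1.63 to 12.7) for Gpnmb, on 8 KO UMIs, and 5.26 (4.20 to 6.58) for Hexa. For Atp6v0d2 it was 0.431 (0.169 to 0.920), on 7 KO UMIs. In intercalated cells 5 of 20 genes of the list were at least 1.5-fold higher and 1 lower, with a median of 0.28. Of all genes there 13.4% were higher and 11.6% lower by this limit. Macrophage and osteoclast genes, listed because Atp6v0d2 and Tcirg1 are known from those cells, summed to 35.9 CPM in KO and 44.3 CPM in WT loop of Henle cells. Of the 6 with at least 10 UMIs, Acp5 (1.76, 1.20 to 2.62) and Ctsk (1.66, 0.545 to 6.02) were at least 1.5-fold higher and Csf1r (0.426, 0.324 to 0.557) and Fcer1g (0.567, 0.400 to 0.801) at least 1.5-fold lower. The rest of the list was low, with Dcstamp and Ocstamp at 0 in both libraries, C1qa at 2 UMIs in KO and 0 in WT, and Lyz2 at 5 UMIs in KO and 0 in WT.

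Over the 26 class and library sums, which share libraries and depth and are not independent, the log2 levels of the members were most alike for Atp6v1c2 and Atp6v1g3 (Pearson r = 0.91) and least for Atp6v0a4 and Atp6v1g3 (r = 0.37). Among 20120 genes compared, the closest to Atp6v1c2 was Slc4a9 (r = 0.97) and the closest to Atp6v1g3 was 2610016A17Rik (r = 0.97). Atp6v1b1 was closest to Smim6 (r = 0.95), Ckmt1 and Muc1. Atp6v0a4 was closest to Cyp2j11 (r = 0.93), Fam110c and Aldh1l1, and for Atp6v0d2, with its KO loop level, the highest value was lower, r = 0.86 with 6030400A10Rik.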

How the data were processed

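Raw UMI counts per gene and barcode were analysed, deposited by the authors without normalization as 1 matrix a library. Per the labels, they came from 10x Genomics Chromium 3′ chemistry, and per the submitters' processing notes from bcl2fastq 2.20.0, Cell Ranger and STAR 2.7.2a on GRCm38 (mm10). The Cell Ranger version was 7.1.0 for KO and 7.0.0 for WT, per the file headers. Handling of intronic, antisense and overlapping reads is not given in the sources used here. Gene positions came from GENCODE M21 (55227 of 55488 rows matched) and promoter sequences from RefSeq.

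The members and gene lists, and the rules for naming genes, were chosen with earlier results of these data known. The named genes are the members, their paralogs, at most 6 other subunits per class, listed pathway genes, and the 3 genes most like each member.

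Barcodes needed 1000 UMIs, 500 genes and at most 20% mitochondrial UMIs (5040 KO and 4187 WT passed). Scrublet's own threshold called 2 KO and 41 WT barcodes, too few to use, so barcodes with the highest scores were removed up to the expected doublet rate (272 KO, 210 WT). Cells were clustered in scanpy 1.11.5 without V-ATPase genes (2000 variable genes, 40 components, 20 neighbours, Leiden resolution 1), with no batch integration. A cluster's name needed a scaled marker score of 0.35 and a lead of 0.05, limits set after seeing the data. Ratio intervals are exact conditional Poisson intervals, share intervals exact Clopper-Pearson, and log2 ratios were taken after adding 0.5 UMI to both sums. The interval was tested on simulated counts. The finer resolution was 2. Likeness used log2(CPM + 1) over classes with at least 10 cells and genes with at least 100 UMIs. Alternatives varied cell filters, doublets, resolution, gate, scaling (TMM in edgeR 4.0.16, median of ratios in DESeq2 1.42.0), averaging, thinning and limits.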

Additional observations from a re-analysis of the deposited data

How the results depend on the processing

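In loop of Henle cells the ratios of Atp6v0a4, Atp6v0d2, Atp6v1b1 and Atp6v1c2 kept their direction in all alternatives run, within 1.04 to 1.20, 6.59 to 13.1, 0.183 to 0.304 and 0.0627 to 0.106. Atp6v0d2 was 6.59 and Atp6v0a4 1.20 with no doublet removal. Atp6v0d2 was 7.27 at Leiden resolution 2, with V-ATPase genes among the variable genes, and with no intercalated gate (added after seeing the data). Each of these puts 1 WT intercalated cell with 42 Atp6v0d2 UMIs into the loop class. The mean over cells gave 13.1 for Atp6v0d2 and 0.183 for Atp6v1b1, and thinning gave 0.304 for Atp6v1b1 with 1 member lower, since fewer UMIs were left; the cause of the others was not tested. Of the 19 other V-ATPase genes, 4 were higher at a 2-fold limit, and 1 was lower with at most 10% mitochondrial UMIs. In intercalated cells 2 members passed 1.5-fold after thinning. In the same cells Atp6v0a4 was 0.921 with a gate of at least 2 markers (added after seeing the data), Atp6v1c2 reached 1.04 when thinned, and Atp6v1g3, at 1.0, ranged over 0.915 to 1.07 and kept its side of 1 in 4 of 11 alternatives.

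Among the ratios past 1.5-fold with an interval that excluded 1, Atp6v0a4 in early nephron cells turned round (0.676 with no doublet removal, 0.774 thinned). In distal tubule so did Atp6v0a4 (0.837 with at most 10% mitochondrial UMIs, 0.849 with no doublet removal), Atp6v0d2 (0.936 with no doublet removal, 0.989 with no gate, 0.532 as mean over cells) and Atp6v1b1 (1.32 as mean over cells). Among those with an interval that included 1, Atp6v1b1 in early nephron cells (0.523) reached 1.54. Atp6v1g3 in ureteric bud and collecting duct cells (0.455) reached 4.88. Each of these 2 kept its direction in 6 of 11 alternatives. The cause was not tested. Distal tubule had no cells at resolution 0.5 or at a minimum of 3000 UMIs and gave no value there. TMM and median-of-ratios scaling moved log2 ratios by between -0.04 and 0.06. The gate of 3 markers, listed as an alternative, became the main definition of intercalated cells. No paired analysis was possible because each group has 1 library, and leaving out a replicate was not possible either.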

Other observations

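Among stromal cells, which arise outside the Six2 lineage, Atp6v0d2 was highest in 1 cluster. A stromal cluster led by Gria1, Cntn4 and Cacna2d3 held 101 of 150 KO stromal UMIs of the gene (67.3%) and 76 of 125 WT UMIs (60.8%). Its level there was 17.7 CPM (14.4 to 21.5) in 330 KO cells and 14.6 CPM (11.5 to 18.3) in 285 WT cells, a ratio of 1.21 (0.891 to 1.65) that did not differ from 1 beyond counting error. Cells with a UMI made up 16.7% of the cluster in KO and 14.0% in WT. The other 6 stromal clusters lay between 0.620 and 4.69 CPM in KO and between 1.10 and 7.77 CPM in WT. The interval of that highest WT level (4.68 to 12.1) overlapped the one of the Gria1 cluster. Cells with a UMI reached 5.45% in KO and 10.1% in WT in these other clusters. Foxi1 was at 0 in KO and 0.192 CPM in WT cells of the Gria1 cluster, and Umod at 8.59 CPM in KO and 1.73 CPM in WT.

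Macrophages, which can express Atp6v0d2, had 16 UMIs of it in 124 KO cells and 2 UMIs in 52 WT cells, a ratio of 3.22 (0.757 to 28.9), so a difference was not detectable at this depth.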
